A study of Mus musculus with 4 samples.

Results

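The 32 genes described here carry out N-glycosylation, the attachment of a preassembled sugar tree to asparagine residues of proteins entering the endoplasmic reticulum. They were taken by gene symbol from the 32285 genes of the deposited count tables, and all 32 were found once. By role, 8 supply activated mannose, 12 build the lipid-linked precursor, 9 are subunits of oligosaccharyltransferase and 3 trim glucose from the transferred sugar. Of the 12, 6 act on the cytosolic face of the endoplasmic reticulum, 3 add mannose on the luminal side and 3 supply or add glucose. All 32 were chosen by role, with earlier results of these data known.

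The sugar tree is built on the lipid dolichol, first on the cytosolic face and then, after flipping, in the lumen, where mannose and glucose are added from dolichol-bound donors. Oligosaccharyltransferase moves the finished tree to the protein, and the glucosidases then trim it so that the chaperones calnexin and calreticulin can bind. 2-deoxy-D-glucose is an analogue of both glucose and mannose, is known to block glycolysis and also to disturb assembly of this precursor, and PD-L1 is itself an N-glycosylated protein.

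Single-cell RNA was counted in 4 mouse libraries, 1 per group, from tissue labelled lymph node, in a study whose title concerns ovarian tumours, glycans and checkpoint blockade. The groups were ctrl (control, with no further treatment named), 2DG (2-deoxy-D-glucose), aPDL1 (spelled so in the labels, with no clone or dose) and 2DG_aPDL1, which received both and is called the combination. The series text speaks of young and aged, treated and naive mice, but the sample labels give no age, strain, sex or number of animals, so whether a library pools animals is not known. Each group is 1 library, so its spread is unknown, no difference was tested, and every value below belongs to a single library.

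The libraries held between 61859753 and 73885214 UMIs (unique molecular identifiers, each counting 1 captured transcript), and 7380 to 8553 cells per library were kept. Cells were assigned to classes by marker genes, and a class name here means cells like that type by those markers. The ctrl library stood apart: 33.2% of its cells were neutrophils against 2.85% to 4.23% in the others, and 120 were CD8 T cells against 1372 to 1683. T cells of all kinds made up 4.75% of ctrl cells and 30.9% to 37.0% in the others. B cells made up 0.919% in ctrl and 1.59% to 4.92% in the others. T and B cells together make up most of a lymph node, and monocytes and macrophages made up 34.9% to 41.2% of each library. Of the monocytes and macrophages 18.7% to 23.4% lay at the marker cut, and the median cell of a main class held 1 to 3 markers of other classes. Pairs of libraries shared 22 to 30 cell barcodes. As a measure of free RNA, the C1q genes in CD8 T, CD4 T, B, dendritic cells and neutrophils stood at 0.122% to 1.02% of their level in C1q-high macrophages, the highest in ctrl B cells. The T cell receptor genes stood at 0.113% to 1.07% of their CD8 T level in myeloid and B cells, the highest in 2DG neutrophils. S100a8 and S100a9 in monocytes and macrophages stood at 0.443% of their neutrophil level in ctrl and at most 0.0208% in the other libraries.

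Levels are given as CPM, counts per 1000000, that is the UMIs of a gene per 1000000 UMIs of its class in 1 library, listed in the order ctrl, 2DG, aPDL1 and combination. Values of different genes are not compared, since a 3′ count depends on how well each transcript end is captured. A gene is called higher in 1 class than in another only where its ranges over the 4 libraries did not overlap and the median ratio was past 1.5-fold. The 4 libraries are 4 treatments and not replicates. Summed over the 32 genes, the level was 376 to 444 CPM in neutrophils, 1093 to 1218 in dendritic cells, 1201 to 1280 in monocytes and macrophages, 1158 to 1379 in CD8 T cells and 1320 to 1835 in B cells. The sums of the middle 3 classes overlapped, neutrophils lay below all others and B cells reached above them.

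**Figure D1:**
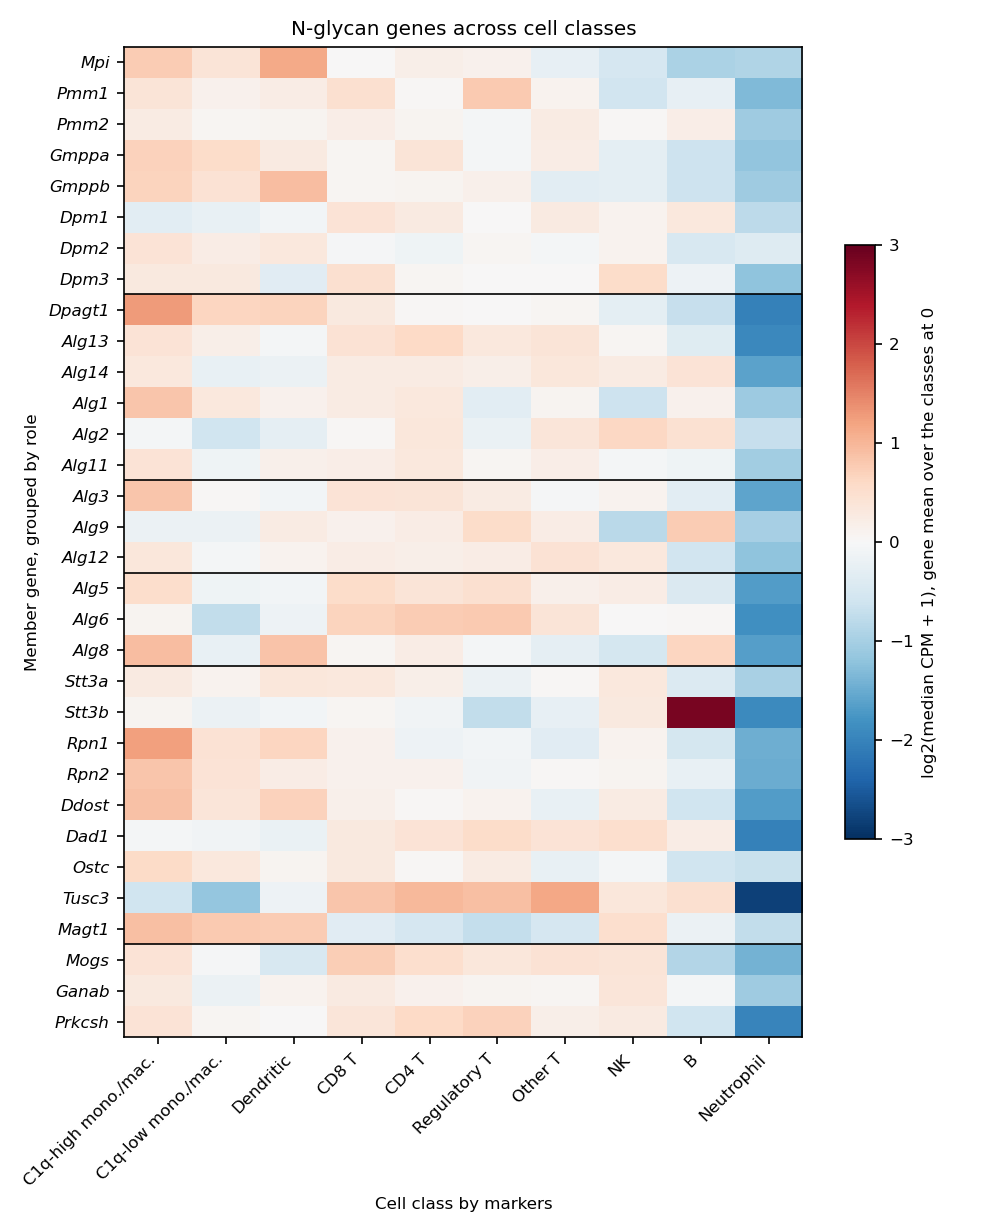
Level of each of the 32 genes in each cell class, grouped by role, from CPM in the 4 libraries. Neutrophils are low for most genes, and Stt3b is high in B cells (548 to 819 CPM) against CD8 T cells (84.9 to 117 CPM).

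The catalytic subunit Stt3b was several-fold higher in B cells than in T cells or myeloid cells. Oligosaccharyltransferase exists in 2 forms, 1 built on Stt3a, which sits at the translocon and modifies proteins as they enter, and 1 built on Stt3b, which can modify sites that were skipped. Stt3b lies on chr9:115242581-115310421 on the minus strand and Stt3a on chr9:36729344-36767679, also on the minus strand (GRCm38, GENCODE annotation). Stt3b stood at 548, 726, 810 and 819 CPM in B cells, from 206, 465, 792 and 1848 UMIs. In CD8 T cells it stood at 108, 117, 112 and 84.9 CPM. All 4 B cell values lay above all 4 CD8 T values, and the median ratio was 6.70-fold (5.05-fold to 9.65-fold over the libraries). Monocytes and macrophages (85.0 to 117 CPM), CD4 T cells (74.3 to 103 CPM) and dendritic cells (73.1 to 103 CPM) overlapped CD8 T cells. NK cells lay a little higher at 101 to 189 CPM, with 25 cells in ctrl, and still overlapped them. Neutrophils were lowest at 23.0 to 30.5 CPM. Stt3b spans 67841 bases and Stt3a 38336. Whether intron reads entered the counts is not stated in the sources used here, and their part in these levels was not tested.

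Plasmacytoid dendritic cells were the other class with much Stt3b, at 522, 372, 613 and 345 CPM. They numbered 56 cells in all, with 20 to 63 Stt3b UMIs per library, and their values overlapped those of B cells. The call for B cells over CD8 T cells was kept in all 14 settings tried for it, including 3 libraries without ctrl. B cells were few, 77 to 421 per library, and 19.5% of those in ctrl lay at the marker cut, against 2.61% to 5.56% in the others.

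The paralogue Stt3a did not share this pattern. It stood at 21.3, 26.5, 46.0 and 47.0 CPM in B cells, from 8, 17, 45 and 106 UMIs, and at 66.0, 60.8, 60.4 and 52.7 CPM in CD8 T cells. The ranges did not overlap, with B cells lower, although the B cell counts were too low for the filter of 20 expected UMIs. Of the UMIs of the 2 paralogues together, Stt3b made up 96.3%, 96.5%, 94.6% and 94.6% in B cells. The lowest exact 95% interval among these was 92.8% to 98.4%, in ctrl, and such intervals cover counting error only. The same share was 61.7% to 65.9% in CD8 T cells, 61.1% to 66.9% in monocytes and macrophages and 58.3% to 68.7% in CD4 T cells. In plasmacytoid dendritic cells it was 74.0% to 90%. Plasma cells, with 7, 9, 1 and 0 cells per library, gave 28.6% in ctrl, 38.1% in 2DG and 80% in aPDL1, from 40 UMIs in all. The ranges of CD8 T cells, CD4 T cells and monocytes and macrophages overlapped, and all 4 B cell values lay above them.

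**Figure D2:**
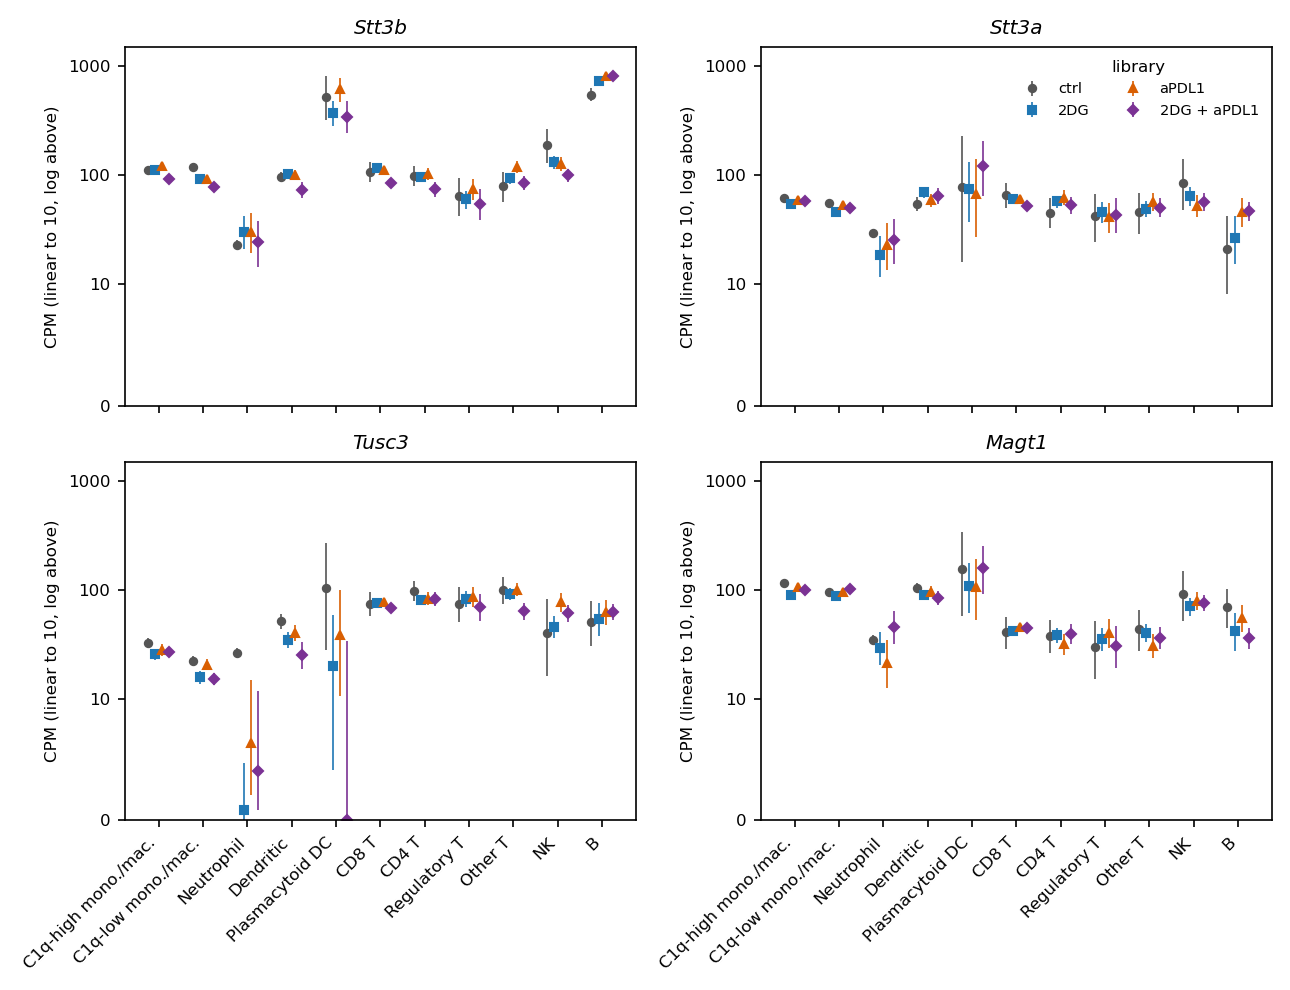
CPM of Stt3b, Stt3a, Tusc3 and Magt1 in each class, 1 point per library with its exact 95% interval. The scale is linear at low values and logarithmic above. Stt3b stands at 548 to 819 CPM in B cells and 84.9 to 117 in CD8 T cells. Tusc3 stands at 68.8 to 78.3 CPM in CD8 T cells, 25.6 to 32.8 in C1q-high and 15.3 to 22.6 in C1q-low monocytes and macrophages.

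Most single B cells held Stt3b. After each cell was thinned to 2000 UMIs, 52.5% to 71.7% of B cells had at least 1 Stt3b UMI (62.3% to 86.0% before thinning, with 63 of 831 cells too shallow to thin). The same share was 14.5% to 19.8% of CD8 T cells (35.4% to 47.5% before thinning) and 14.6% to 20.1% of monocytes and macrophages. Median depth was 4169.5 to 4902 UMIs in B cells and 5946 to 6381.5 in CD8 T cells. Stt3a UMIs were found in 4.55% to 12% of thinned B cells and 9.65% to 11.5% of thinned CD8 T cells, so these shares overlapped. No annotated gene that overlaps Stt3b was found, and Osbpl10, which lies on the other strand, ends 10355 bases from the 3′ end of Stt3b. Osbpl10 had 0, 0, 2.05 and 5.76 CPM in B cells.

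The stretches before the start of both paralogues are shown because the pair diverged between classes. They are from RefSeq (GRCm38.p6), minus strand, read 5′ to 3′ toward the gene, with capitals marking CCAAT and CCACG on either strand (ATTGG and CGTGG on the other strand), the 2 parts of the endoplasmic reticulum stress element. Stt3b is shown at chr9:115310469-115310718 and Stt3a at chr9:36767680-36767872, the rest of its window overlapping an annotated exon.
Stt3b: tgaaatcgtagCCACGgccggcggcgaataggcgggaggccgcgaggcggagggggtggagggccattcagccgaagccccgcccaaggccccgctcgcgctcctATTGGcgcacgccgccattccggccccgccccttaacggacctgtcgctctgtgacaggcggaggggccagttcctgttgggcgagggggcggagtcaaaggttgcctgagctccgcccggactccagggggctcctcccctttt
Stt3a: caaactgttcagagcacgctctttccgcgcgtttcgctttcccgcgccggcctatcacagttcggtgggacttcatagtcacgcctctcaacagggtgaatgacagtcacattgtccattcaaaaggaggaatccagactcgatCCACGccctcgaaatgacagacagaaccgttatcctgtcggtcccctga
GC content was 70.4% for Stt3b and 53.9% for Stt3a. Stt3b held 1 match of each motif. The Stt3a stretch shown held 1 match of CCACG and 0 of CCAAT, but its untrimmed window of 250 bases also held CCAAT. The octamer ATGCAAAT, bound by B cell octamer factors among others, was found in the 250 bases before 1.81% of 27025 genes and before none of the 26 members in the table. These matches describe letters only.

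Beside Stt3b, few genes had enough UMIs to compare B cells with CD8 T cells. Of 32 genes 6 passed the filter for this contrast: 1 was higher in B cells (background 17.3% of all genes tested) and 1 was lower (background 25.1%). The lower one was Ostc, a subunit of the Stt3a form, at 31.9, 42.2, 29.7 and 49.7 CPM in B cells and 59.2, 68.6, 69.5 and 80.1 in CD8 T cells. Its B cell values rest on 12, 27, 29 and 112 UMIs, and it passed the filter through its CD8 T level: with the filter in each class alone, an alternative added after the values were seen, 5 genes were left, Stt3b was the 1 higher (background 17.4%) and 0 were lower (background 15.2%). With cycling cells left out, or with at least 1000 detected genes per cell, Ostc was no longer called. Without the filter 27 genes had UMIs in both classes of every library, with a median log2 ratio of -0.38, against -0.07 for all genes. Of these, 7 were lower in B cells, Alg13, Alg3, Alg5, Stt3a, Ddost, Ostc and Prkcsh, against 18.6% of all genes. The summed level of the 31 genes other than Stt3b was 772 to 1024 CPM in B cells and 1050 to 1268 in CD8 T cells, without overlap.

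The pair Tusc3 and Magt1 separated T cells from monocytes and macrophages. Both are oxidoreductase subunits that occupy the same place in the Stt3b form of the enzyme. Tusc3 (chr8:39005845-39165114, plus strand) stood at 75.1, 75.7, 78.3 and 68.8 CPM in CD8 T cells and at 26.3, 20.4, 23.3 and 20.6 in monocytes and macrophages. The median ratio was 3.35-fold, from 2.88-fold to 3.72-fold. Magt1 (chrX:105968084-106011906, minus strand) went the other way, at 41.0, 41.8, 45.5 and 44.6 CPM in CD8 T cells and 103, 89.0, 99.7 and 102 in monocytes and macrophages, a median ratio of 0.45-fold. For neither gene did the ranges of the 2 classes overlap.

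As a share of the pair, Tusc3 made up 64.7%, 64.4%, 63.2% and 60.7% in CD8 T cells and 20.4%, 18.6%, 18.9% and 16.9% in monocytes and macrophages. CD4 T cells lay above CD8 T cells, at 67.6% to 72.3%. Dendritic cells lay nearer the macrophages, at 23.0% to 33.2%. NK cells, at 30.4% to 49.1%, lay between the T cells and the macrophages, and B cells, at 42.2% to 63.6%, overlapped the CD8 T cells. Magt1 was called lower in CD8 T cells in all 14 settings, and Tusc3 was called higher in 13 of 14. The exception was the filter of 50 expected UMIs, which Tusc3 did not pass. Tusc3 spans 159270 bases and Magt1 43823, and the part of intron reads in their levels was not tested.

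Of the 17 genes that passed the filter for CD8 T cells against monocytes and macrophages, 2 were higher in CD8 T cells (background 31.9%) and 2 were lower (background 23.5%). The other higher gene was Dpm1, the catalytic subunit of dolichol-phosphate mannose synthase, at 106, 130, 107 and 133 CPM against 70.4, 76.7, 68.9 and 85.8. The other lower gene was Rpn1, a subunit of both forms of oligosaccharyltransferase that helps present substrates, at 45.5, 60.2, 65.8 and 51.3 CPM against 91.6, 89.9, 94.7 and 89.8. With TMM factors or median-of-ratios factors Dpm1 was no longer called, and Dpm2, Rpn2 and Ddost joined the lower genes. Those scalings shift all genes together, and they put 30.5% and 33% of all genes on the lower side. Dpm2 passed the filter only through its level in monocytes and macrophages, and its CD8 T counts alone were too low for it. Without ctrl, Rpn1 was not called. The remaining members of the enzyme gave no call between these 2 classes: Dad1, a small subunit of both forms, stood at 168 to 232 CPM in CD8 T cells and 145 to 177 in monocytes and macrophages.

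Neutrophils had the least of most of these transcripts. In 23 of 32 genes the whole range over the 4 libraries in neutrophils lay below the range in each of the other 4 main classes (monocytes and macrophages, dendritic, CD8 T and CD4 T cells), where 21% of all genes did so. This rule was added after the values were seen. The 9 others were Mpi, Gmppa, Dpm1, Dpm2, Alg2, Alg12, Ostc, Tusc3 and Magt1. Set against monocytes and macrophages, 27 genes had UMIs in both classes of every library, 24 of them were higher there (background 36.4%) and 0 were lower (background 16%). Their median log2 ratio was 1.67, against 0.37 for all genes. The 5 genes without UMIs in some library were Mpi, Dpagt1, Alg1, Alg3 and Alg6. With the filter of 20 expected UMIs over both classes together, 10 genes passed and 9 were higher (background 37.9%), but Dpm3, Stt3a, Rpn1, Rpn2 and Ddost passed through their level in monocytes and macrophages. With the filter in each class alone 5 genes were left and 4 were higher, Stt3b, Dad1, Ostc and Magt1 (background 24.6%).

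The shared core of oligosaccharyltransferase was far lower in neutrophils. Rpn1 stood at 14.1, 21.1, 14 and 25.6 CPM in neutrophils, against 89.8 to 94.7 in monocytes and macrophages. Ddost, another core subunit, stood at 10.4, 17.7, 7.64 and 14.8 CPM against 61.3 to 66.3. Dad1 stood at 36.0, 53.9, 45.8 and 37.7 CPM against 145 to 177. Rpn2, also of the core, stood at 18.9, 35.4, 25.5 and 22.9 CPM against 102 to 110. For none of these did the classes overlap. Rpn1, Rpn2 and Ddost gave 6 to 42 UMIs in each treated library of neutrophils. Dpm1 differed least among the filtered genes, at 49.0, 53.1, 45.8 and 68.7 CPM against 68.9 to 85.8, a median ratio of 1.43-fold.

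Early steps were sparse in neutrophils. Dpagt1, which starts the precursor and is the target of tunicamycin, gave 16, 1, 3 and 0 UMIs, and Mpi, which makes mannose 6-phosphate from fructose 6-phosphate, gave 6, 0, 1 and 2. A count of 0 allows up to 3 UMIs, as an upper 95% bound alone. The exact intervals used elsewhere have a lower and an upper end and reach a little higher. Neutrophils were also the shallowest of the main classes, with medians of 3908, 2913.5, 2624 and 2639 UMIs per cell against 7039 to 10939 in monocytes and macrophages. CPM divide by those UMIs, and whether depth has a part in the difference was not tested.

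Tusc3 in neutrophils was a single-library exception. It stood at 26.7 CPM in ctrl, from 385 UMIs, and at 0.842, 6.36 and 4.04 CPM in the other libraries. Only 88 of 2781 ctrl neutrophils (3.16%) held those UMIs, and 17 cells with at least 5 each held 266 of them (69.1%). Without those 17 cells, an alternative added after the values were seen, the ctrl level was 8.37 CPM. Median depth of the 88 cells was 4027 UMIs. Sgcz, the neighbouring gene on the opposite strand, had 85 UMIs in ctrl neutrophils, 70 of them in the same 88 cells.

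Monocytes and macrophages were split by the complement genes C1qa, C1qb and C1qc, at 10 UMIs per 10000, because C1q marks more mature macrophages. The cut makes a range and not a cell type: 51 to 109 cells per library lay between 8 and 12. C1q-high cells made up 32.8%, 40.3%, 28.3% and 37.0% of the class. They were deeper, with medians of 8959 to 12443 UMIs per cell against 6529.5 to 10587.5 in C1q-low cells, and the part of depth in what follows was not tested. Cells with at least 2 markers of resident serous-cavity macrophages (Gata6, Icam2, Timd4, Alox15, Selp) made up 0.516% to 0.965% of the class.

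Several of the transcripts that build the precursor were higher in C1q-high cells. All 32 genes passed the filter, 9 were higher in C1q-high cells (background 11.9%) and 0 were lower (background 3.81%). The median log2 ratio of the 32 was 0.45, against 0.13 for all genes, and 31 of 32 were above 0, the exception being Dpm1 at -0.10. The number called depended on the scaling: with TMM or median-of-ratios factors 3 were called (Alg3, Alg8 and Rpn1), against 7.79% and 7.47% of all genes, so that the share of members called was near that of all genes. With TMM factors the median log2 ratio of the 32 was 0.30, against -0.01 for all genes. Without cycling cells 5 were called, and 984 of all genes, where the main setting gave 1291 of all genes. Without ctrl 10 were called, and 1536 of all genes, with fewer libraries whose ranges had to lie apart.

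By role, and against 11.9% of all genes higher, the calls were spread as follows. The 3 genes for glucose, Alg5, Alg6 and Alg8, were all called, with a median log2 ratio of 0.80. Of 6 genes on the cytosolic face 3 were called, Dpagt1, Alg14 and Alg11, with a median of 0.58, and of the 3 luminal mannosyltransferases 1, Alg3, with a median of 0.37. Among the 9 subunits of oligosaccharyltransferase 2 were called, Rpn1 and Tusc3, with a median of 0.25. None of the 8 genes of mannose supply was called, with a median of 0.15 near that of all genes, and none of the 3 trimming genes, with a median of 0.48. With TMM or median-of-ratios factors the 3 calls fell in 3 roles, 1 each for glucose, luminal mannose and oligosaccharyltransferase, and the other calls, Alg5, Alg6 and all those of the cytosolic face among them, were lost. With TMM factors the role medians were 0.69 for glucose, 0.42 for the cytosolic face and 0.03 for mannose supply. These role medians rest on 3 to 9 genes each and are a description.

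Alg8, which adds the second glucose of the precursor, differed most and was the only gene also past 2-fold. It stood at 12.8, 9.99, 12.5 and 7.28 CPM in C1q-high cells and 4.13, 3.74, 6.18 and 4.96 in C1q-low cells, a median log2 ratio of 1.21. Alg3, the first mannosyltransferase of the lumen, stood at 9.11, 10.4, 9.79 and 7.84 CPM against 4.72, 5.57, 5.26 and 3.5 (median log2 ratio 0.92). Rpn1 stood at 117, 116, 138 and 121 CPM against 77, 67.2, 71.3 and 63.8 (0.86). Alg6, which adds the first glucose, stood at 6.71, 5.28, 3.41 and 4.56 CPM against 1.47, 3.16, 2.14 and 2.51 (0.80), and is the least deep of these, with 30 to 84 UMIs. In each of these genes every C1q-high library lay above every C1q-low library.

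Alg5, which makes dolichol-phosphate glucose, stood at 31.9, 32.2, 30.5 and 36.0 CPM in C1q-high cells and 20.5, 20.3, 19.6 and 19.7 in C1q-low cells. Dpagt1 stood at 17.5, 19.9, 24.5 and 16.5 CPM against 11.2, 12.3, 12.6 and 10.6. Alg3 overlaps Vwa5b2 and Eef1akmt4 on the other strand, and Dpagt1 overlaps Gm48853, so some of their reads could belong to those genes if strand was not used in counting. The same holds for Pmm2, Gmppb, Alg1, Alg9 and Rpn2, which also overlap annotated genes on the other strand, and Gmppb overlaps Gm20529 on its own strand.

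**Figure D3:**
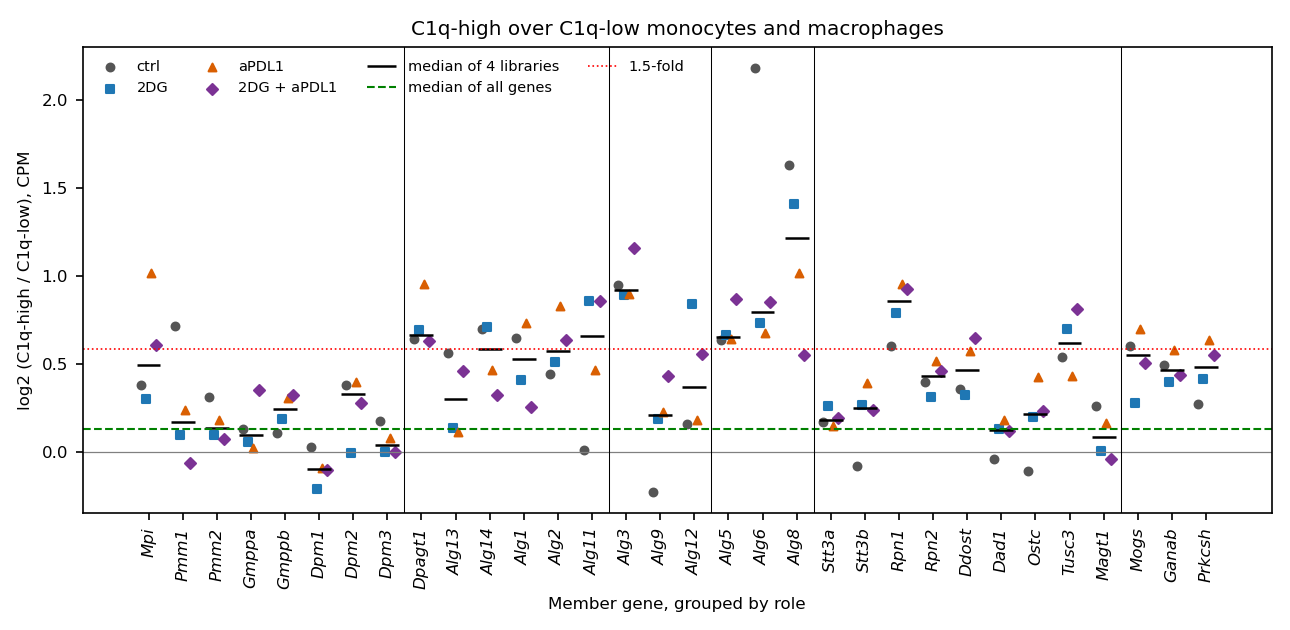
Median log2 ratio of C1q-high over C1q-low cells for each of the 32 genes, grouped by role, with 1 point per library. All genes but Dpm1 have a median above 0, and Alg8 (1.21), Alg3 (0.92), Rpn1 (0.86) and Alg6 (0.80) lie farthest out.

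Stretches before the starts of Alg8, Rpn1 and Alg6 are shown because these genes were among those that differed most between C1q-high and C1q-low cells, again from RefSeq (GRCm38.p6), read 5′ to 3′ toward the gene, with the same 2 motifs in capitals. They are Alg8 at chr7:97371367-97371605 (plus strand), Rpn1 at chr6:88084223-88084472 (plus) and Alg6 at chr4:99715380-99715629 (plus).
Alg8: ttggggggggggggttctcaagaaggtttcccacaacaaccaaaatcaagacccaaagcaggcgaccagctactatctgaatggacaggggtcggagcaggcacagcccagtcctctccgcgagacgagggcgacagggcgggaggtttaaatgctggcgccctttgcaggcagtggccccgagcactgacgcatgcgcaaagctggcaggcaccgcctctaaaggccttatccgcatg
Rpn1: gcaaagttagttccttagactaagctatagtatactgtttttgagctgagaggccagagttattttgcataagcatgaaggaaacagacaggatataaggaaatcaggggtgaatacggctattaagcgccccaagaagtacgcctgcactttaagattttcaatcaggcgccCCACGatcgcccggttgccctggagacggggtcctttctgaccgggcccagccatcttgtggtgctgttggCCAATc
Alg6: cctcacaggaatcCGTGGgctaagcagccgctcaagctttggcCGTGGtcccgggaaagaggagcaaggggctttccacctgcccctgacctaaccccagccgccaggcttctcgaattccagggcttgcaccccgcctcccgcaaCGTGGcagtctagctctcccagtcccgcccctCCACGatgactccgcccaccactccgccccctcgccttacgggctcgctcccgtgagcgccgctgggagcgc
Alg3 is not shown, since its RefSeq start lies 974 bases inside the GENCODE gene. Rpn1 held both motifs, Alg6 held 4 matches of CCACG and Alg8 held neither. Over all members 26 of 32 were in the table, and for 2 of them, Alg3 and Dpm3, the RefSeq start lay more than 250 bases from the GENCODE start. CCAAT was found within 250 bases before 13 of these 26, against 37.5% of 27025 genes, and CCACG before 7 of 26, against 31%. The full stress element, ERSE, in which 9 bases of any kind part CCAAT from CCACG, was found before Alg12 alone, against 0.13% of all genes. Neither its shorter form, ERSE-II (0.037% of all genes), nor TGACGTGG (0.603%), a site for unfolded protein response factors, was found before any member. A match is a description of letters and says nothing of binding, and no match says only that the letters are not in this window.

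Other genes of the route were counted in the same contrast, where 11.9% of all genes were higher and 3.81% lower. Of 20 tested genes outside the 32, which cover dolichol synthesis, further subunits and glycoprotein folding, 4 were higher in C1q-high cells, Dolpp1, Canx, Calr and Pdia3, and none was lower. With TMM or median-of-ratios factors 2 were, Calr and Pdia3. Of 16 tested genes of the unfolded protein response, 5 were higher, Hspa5, Hsp90b1, Pdia6, Sdf2l1 and Dnajc3, and 1, Xbp1, was lower. With either of those factors Hsp90b1, Pdia6 and Sdf2l1 were higher and Xbp1 lower. Of 16 tested genes of the unfolded protein response, 5 were higher, Hspa5, Hsp90b1, Pdia6, Sdf2l1 and Dnajc3, and 1, Xbp1, was lower. Of 5 genes that supply UDP-GlcNAc, the sugar donor for the first step, none was called, and their median log2 ratio was -0.09.

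Between treatments few of the 32 genes differed past 1.5-fold. Each treatment was seen in 2 comparisons: that of 2DG over ctrl and of the combination over aPDL1 for 2DG, that of aPDL1 over ctrl and of the combination over 2DG for aPDL1. The 4 comparisons share libraries, so none is independent of the rest, and those over ctrl rest on the library that stood apart. Over the 5 main classes 94 pairs of gene and class passed the filter of 20 expected UMIs. For 2DG over ctrl 2 pairs were higher and 3 lower (background 19.1% of all gene and class pairs in either direction), and for the combination over aPDL1 3 were higher and 3 lower (background 14.4%). For aPDL1 over ctrl 4 were higher and 4 lower (background 20.9%), and for the combination over 2DG 2 and 2 (background 14.4%).

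No gene repeated. Of the 94 pairs, 0 lay past 1.5-fold in the same direction in both comparisons of 2DG (background 3.09%), and 0 in both of aPDL1 (background 3.43%). This rule was added after the values were seen. Of the 23 calls, 8 stayed past 1.5-fold under each alternative in which they were recomputed: Alg13, Dpm3, Ostc, Rpn1 and Alg9 (combination over aPDL1) in CD4 T cells, Tusc3 in dendritic cells, and Ostc in neutrophils for the combination over aPDL1 and for aPDL1 over ctrl. The other 15 fell under 1.5-fold in at least 1 alternative. The filter of 50 expected UMIs and the 2-fold cut were not among these alternatives. Under each of them fewer calls were left.

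**Figure D4:**
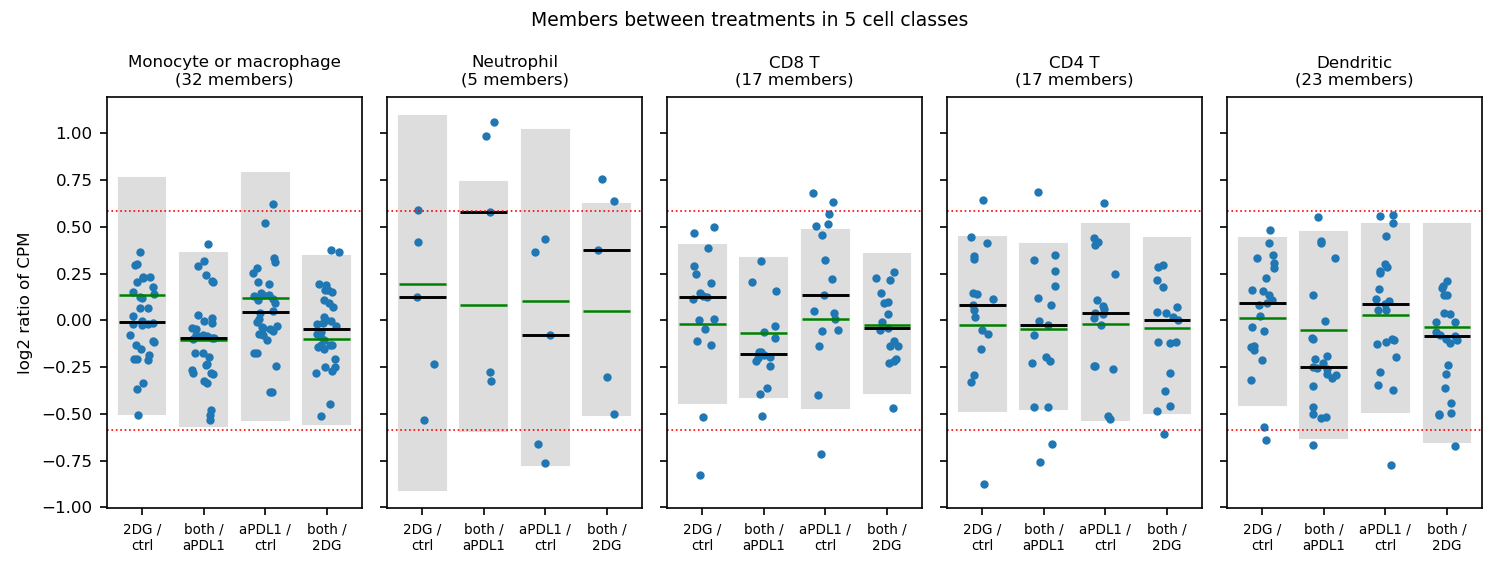
Log2 ratio in the 4 comparisons for each main class, 1 dot per gene that passed the filter. Black lines mark the median of these genes and green lines that of all genes tested. Grey boxes show where most of all genes tested lay, and dotted lines mark 1.5-fold. Most values lie within 1.5-fold, and those beyond it differ from class to class and between the 2 comparisons of the same treatment.

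In monocytes and macrophages, the class with the most cells in each library, all 32 genes were tested and 1 passed 1.5-fold in 1 comparison. It was Gmppb, the catalytic subunit that makes GDP-mannose, at 11.1, 12.8, 17.1 and 16.6 CPM, with a log2 ratio of 0.62 for aPDL1 over ctrl and 0.37 for the combination over 2DG. Both libraries with aPDL1 lay above both without it. With TMM or median-of-ratios factors the first ratio was 0.50, with equal weight per cell 0.52 and without cycling cells 0.57, each under 1.5-fold. Background in this class was 23.5%, 14.1%, 24.8% and 13.6% of all genes in the order 2DG over ctrl, combination over aPDL1, aPDL1 over ctrl, combination over 2DG. The median log2 ratios of the 32 genes were -0.01, -0.09, 0.04 and -0.05 in that order, and those of all genes were 0.13, -0.10, 0.12 and -0.10, so a gene at 0 lies slightly below the typical gene in the comparisons over ctrl. Stt3b stood at 117, 101, 104 and 85.0 CPM, Rpn2 at 110, 102, 109 and 102, Stt3a at 58.0, 50.1, 55.8 and 54.0, and Ddost at 66.3, 61.3, 64.8 and 65.3.

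The other members of this class lay within 1.5-fold throughout. Dpagt1 stood at 13.5, 15.8, 16.8 and 13.3 CPM, and Mpi at 3.82, 4.14, 4.81 and 4.09. The phosphomannomutases Pmm1 and Pmm2 stood at 6, 5.93, 6.17 and 4.34 CPM and at 29.1, 28.7, 31.4 and 26.7 CPM. Alg13 and Alg14, which together add the second sugar, stood at 19.7, 18.6, 18.6 and 18.4 CPM and at 11.0, 10.9, 10.3 and 12.2 CPM. Alg2, a cytosolic mannosyltransferase, stood at 5.39, 3.79, 5.21 and 4.89 CPM. Mogs, which removes the outermost glucose, stood at 14.8, 16.4, 17.7 and 14.7 CPM. The 2 subunits of glucosidase II, Ganab and Prkcsh, stood at 37.0, 36.8, 37.1 and 35 CPM and at 42.6, 43.2, 46.7 and 40.8 CPM.

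Within the C1q-high cells alone, Gmppb (11.7, 13.7, 19.6 and 18.7 CPM) and Mpi (4.47, 4.61, 7.17 and 5.04 CPM) were past 1.5-fold higher and Alg6 lower for aPDL1 over ctrl (background 16.8%). Pmm1 and Alg8 were lower for the combination over aPDL1 (background 16.4%). Within the C1q-low cells, Alg6 was higher and Alg11 lower for 2DG over ctrl (background 32.1%), Alg9 lower for the combination over aPDL1 (background 13.1%), Ostc lower for aPDL1 over ctrl (background 31.2%) and Alg3 lower for the combination over 2DG (background 13.1%). None was called in C1q-high cells for 2DG over ctrl (background 15.8%) or for the combination over 2DG (background 13.7%). No gene was called in the same comparison in both C1q-high and C1q-low cells.

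In CD8 T cells 17 genes were tested. Alg9, a luminal mannosyltransferase, stood at 42.1, 24.0, 25.9 and 22.3 CPM, with log2 ratios of -0.83 for 2DG over ctrl (background 9.22%) and -0.72 for aPDL1 over ctrl (background 12.4%). The ctrl library alone was high, from 37 UMIs in 120 cells. Without cycling cells the ratios were -0.51 and -0.41, under 1.5-fold. Dpm3, which anchors dolichol-phosphate mannose synthase, stood at 45.5, 65.1, 73.9 and 69.3 CPM (0.68 for aPDL1 over ctrl), and Rpn2 at 54.6, 76.1, 85.4 and 75.5 CPM (0.63). In both genes the ctrl library was the low one. Dpm3 fell to 0.47 with equal weight per cell, and among cells with 2 or more checkpoint genes Dpm3 was at 0.51 and Rpn2 at 0.55, each under 1.5-fold. None was called for the combination over aPDL1 (background 6.32%) or over 2DG (background 6.84%), where each library held at least 1372 cells. For the combination over aPDL1, 14 of 17 genes lay below 0, among them Stt3b, at 84.9 CPM in the combination and 112 in aPDL1. Their median was -0.18 against -0.07 for all genes, so the typical gene lay below 0 too. In monocytes and macrophages 24 of 32 lay below 0 in this comparison, with a median of -0.09 against -0.10 for all genes. In CD4 T cells 10 of 17 did, with a median of -0.02 against -0.05. In the CD8 T cells with 2 or more checkpoint genes, 16 genes were tested: Pmm2 and Alg9 were lower for 2DG over ctrl (background 8.69%) and Alg9 for aPDL1 over ctrl (background 11.3%). This subset held 93 cells in ctrl, fewer than the 100 asked of main classes, and the size rule was not applied to it. Its ratios over ctrl, those of Dpm3 and Rpn2 above included, rest on those 93 cells. None was called there for the combination over aPDL1 (background 6.55%) or over 2DG (background 7.1%).

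CD4 T cells gave 7 calls over the 4 comparisons, from 17 genes tested. For 2DG over ctrl (background 12.3%), Ganab was higher at 31.4, 49.8, 42.0 and 36.1 CPM (0.65) and Alg13 lower at 37.8, 20.8, 26.4 and 19.1 CPM (-0.88). For the combination over aPDL1 (background 10.5%), Ostc was higher at 48.7, 66.8, 48.2 and 77.6 CPM (0.68), Rpn1 lower at 43.3, 48.4, 58.3 and 34.4 CPM (-0.76) and Alg9 lower at 26.0, 27.4, 28.4 and 17.8 CPM (-0.66). Alg9 was also lower for the combination over 2DG (-0.61, background 13.6%), the combination being its low library, but at -0.54 with TMM factors. Ganab fell to 0.46 with 1 marker more per gate. For aPDL1 over ctrl (background 16%) Dpm3 was higher, at 34.6, 46.7, 54.0 and 57.2 CPM (0.63), with ctrl lowest as in CD8 T cells. Ostc was higher in both libraries with 2DG than in both without it, past 1.5-fold in 1 of the 2 comparisons.

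In dendritic cells 23 genes were tested and 1 was lower in each comparison. Alg8 stood at 13.8, 8.80, 12.6 and 8.63 CPM (-0.64 for 2DG over ctrl, background 11.5%), lower in both libraries with 2DG. Without cycling cells its ratio for 2DG over ctrl had the other sign, 0.19. Cycling cells made up 21.4% of dendritic cells in ctrl, 14.2% in 2DG, 11.6% in aPDL1 and 3.88% in the combination. Tusc3 stood at 51.6, 34.7, 40.6 and 25.4 CPM (-0.67 for the combination over aPDL1, background 18.2%), also lower in both libraries with 2DG. Dpagt1 stood at 13.8, 12.3, 8 and 11.7 CPM (-0.77 for aPDL1 over ctrl, background 15%), and Alg5 at 21.5, 26.1, 20 and 16.2 CPM (-0.67 for the combination over 2DG, background 19.8%). For the combination over aPDL1, 18 of 23 genes lay below 0, with a median of -0.25 against -0.05 for all genes. The typical gene thus also lay below 0, and the share of all genes below 0 is not given here. Without cycling cells Alg5 was at -0.40, and with 1 marker more per gate Dpagt1 was at -0.57, both within 1.5-fold. From 23.8% to 36.4% of dendritic cells lay at the marker cut.

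The genes without a call stayed closer together in the lymphoid and dendritic cells. Dad1 stood at 168, 201, 232 and 222 CPM in CD8 T cells and 203, 216, 242 and 263 in CD4 T cells, with ctrl lowest in both, and at 125, 158, 154 and 145 in dendritic cells. Stt3a stood at 45.4, 57.6, 62.2 and 53.1 CPM in CD4 T cells and 55, 70.1, 59.1 and 64.9 in dendritic cells. Ddost stood at 38.7, 43.3, 58.3 and 51.8 CPM in CD8 T cells and 72.5, 65.9, 75.4 and 61.4 in dendritic cells. Prkcsh stood at 45.5, 50.4, 65.4 and 45.8 CPM in CD8 T cells, with aPDL1 highest, and Mogs at 23.9, 23.7, 23.4 and 20.4. Dpm1 was higher in both libraries with 2DG than in both without it in CD8 T cells, in CD4 T cells (94.1, 120, 95.2 and 121 CPM) and in dendritic cells (80.5, 87, 66.6 and 89.3 CPM), within 1.5-fold each time. Mpi, Pmm1, Alg1, Alg2, Alg11 and Alg12 were under the filter in these 3 classes.

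In neutrophils 5 genes passed the filter, Dpm1, Stt3b, Dad1, Ostc and Magt1. Ostc stood at 42.1, 28.6, 24.2 and 48.5 CPM and Magt1 at 35.1, 29.5, 21.6 and 45.8 CPM, so that in both genes ctrl and the combination were high and aPDL1 was low. Both were past 1.5-fold for the combination over aPDL1 (0.99 and 1.06, background 25.4%), for aPDL1 over ctrl (-0.76 and -0.66, background 39.7%) and for the combination over 2DG (0.76 and 0.64, background 18.6%). The 3 treated libraries gave 17 to 36 UMIs of these genes each. With 1 marker more per gate Magt1 was at -0.24 for aPDL1 over ctrl, and without Scrublet removal both genes were within 1.5-fold for the combination over 2DG (0.56 and 0.53). Dad1 was just past 1.5-fold for 2DG over ctrl (0.59, background 45.1%), but at 0.37 with TMM factors, 0.32 with median-of-ratios factors, 0.31 with equal weight per cell and 0.27 without cycling cells.

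Smaller differences that ran the same way in several classes were counted for the 16 genes tested in all 4 main classes other than neutrophils, by a rule added after the values were seen. For the combination over aPDL1, 6 genes were lower in all 4 classes, Stt3b, Rpn1, Rpn2, Tusc3, Ganab and Prkcsh (background 30.8%), and 2 were higher, Dpm1 and Ostc (background 17.4%). For 2DG over ctrl, Dpm1, Dpm3 and Dad1 were higher in all 4 (background 17.5%) and Pmm2 lower (background 11.9%). For aPDL1 over ctrl, Dpm3, Rpn1 and Dad1 were higher in all 4 (background 20.7%) and none was lower (background 13.5%). For the combination over 2DG, Dpm1 and Ostc were higher (background 15.3%), and Alg9, Stt3b, Rpn1, Ganab and Prkcsh were lower (background 24.9%). Dpm1 was the only gene higher in all 4 classes in both comparisons of 2DG. These shares lie close to their backgrounds for the most part, and classes of 1 library share its preparation.

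B cells fell short of 100 cells in ctrl and were not compared between treatments by the size rule. Their Stt3b level was 548 CPM in ctrl and 726 to 819 in the treated libraries, with an exact 95% interval of 476 to 628 CPM in ctrl.

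Around the 32 genes, in monocytes and macrophages, counts past 1.5-fold are given in the order 2DG over ctrl, combination over aPDL1, aPDL1 over ctrl, combination over 2DG, with the backgrounds of that class given above (23.5%, 14.1%, 24.8% and 13.6%). Of 20 other genes of the pathway 1, 1, 2 and 0 were past it, with Ost4 lower, higher and lower in the first 3. Of 6 genes of UDP-GlcNAc supply 2, 1, 1 and 1 were, with Gfpt2 at log2 ratios of -2.29, 1.49, -2.32 and 1.46. Of 17 genes of the unfolded protein response 4, 0, 4 and 1 were, with Pdia4, Trib3 and Asns lower and Herpud1 higher in both comparisons over ctrl. In neutrophils 11 genes of that response were tested. For 2DG over ctrl 0 were past 1.5-fold higher and 6 lower (background 45.1% in either direction). For aPDL1 over ctrl 1 was higher and 6 lower (background 39.7%). The combination gave 1 higher over aPDL1 (background 25.4%) and 4 higher over 2DG (background 18.6%), with 0 lower in each. Genes listed around the 32 were searched in the main classes for ratios past 1.5-fold in the same direction in both comparisons of a treatment. Background was 3.09% of all gene and class pairs for 2DG and 3.43% for aPDL1. In neutrophils 10 other genes of the pathway, 2 of UDP-GlcNAc supply and 11 of the unfolded protein response were tested. For 2DG the genes found were Krtcap2 (higher, 0.90 and 1.15) and Gfpt1 (lower, -0.63 and -0.68), both in neutrophils. Krtcap2 belongs to the Stt3a form of oligosaccharyltransferase, and Gfpt1, the first enzyme toward UDP-GlcNAc, stood at 43.6, 27.8, 45.8 and 28.3 CPM. In both comparisons of aPDL1 it was Herpud1, a gene of the unfolded protein response, in monocytes and macrophages (30.7, 48.7, 65.3 and 75.5 CPM, log2 ratios 1.09 and 0.63) and in neutrophils (0.71 and 0.68).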

How the data were processed

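Single-cell RNA from 4 libraries, 1 per treatment, was made with the 10x Genomics 3′ kit v3.1 from tissue labelled lymph node, per the labels. The authors deposited raw counts of UMIs by gene and barcode, left unnormalized, as read from the file headers. Those headers give Cell Ranger 7.0.0, whereas the submitters' processing notes give Cell Ranger 3.1.0 and build mm10. Which of these produced the counts, and whether reads in introns entered them, is not stated in those sources.

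Barcodes needed 500 detected genes or more and a mitochondrial share of no more than 10% (Python 3.11.15, scanpy 1.11.5), and the highest Scrublet scores were removed at 0.8% per 1000 barcodes. That left 8381, 7380, 8319 and 8553 cells for ctrl, 2DG, aPDL1 and the combination, with median depths of 6253, 6464, 5995 and 6034 UMIs. A cell entered a class with UMIs of at least 3 of its markers (4 for neutrophils). Cells passing more than 1 gate were set aside, except that T took precedence over NK and plasma over B. T cells were parted by Cd4, Cd8a or Cd8b1 and Foxp3. Cells with no gate numbered 873 to 1219 per library and those with more than 1 gate 151 to 514.

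UMIs were summed per class and library. Log2 ratios used counts plus 0.5 UMIs, and a treatment ratio was counted past 1.5-fold. Genes needed 20 expected UMIs in the smallest library of the class. Main classes held at least 100 cells in every library. TMM (edgeR 4.0.16) and median-of-ratios factors (DESeq2 1.42.0) were alternatives for scaling only, and no count model was fitted. Intervals are exact Clopper-Pearson or Poisson at 95% and cover counting error only. Gene positions are from GENCODE on GRCm38, upstream sequences from RefSeq on GRCm38.p6 (26 of 32 genes matched), trimmed where an annotated exon overlaps. The scripts were tested on simulated data. Genes named with values in each main class were 21 listed ones and any gene past 1.5-fold there. The 32 genes and all lists were chosen with earlier results of these data known.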

Additional observations from a re-analysis of the deposited data

How the results depend on the processing

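No paired analysis was possible because each group is 1 library and the groups share no replicate. Of 236 recomputed log2 ratios of the 23 called genes and classes 235 kept their sign and 35 fell within 1.5-fold or changed sign. The exception was Alg8 in dendritic cells, at 0.19 for 2DG over ctrl without cycling cells. Counts of gene and class pairs past 1.5-fold were 5, 6, 8 and 4 in the order 2DG over ctrl, combination over aPDL1, aPDL1 over ctrl, combination over 2DG, and 41 of 60 recomputed counts stayed within 1.5 times of these. In the same order they were 36, 28, 37 and 27 with no filter, 0, 2, 3 and 0 with 50 expected UMIs, 25, 29, 31 and 19 at the looser fold tried and 0, 1, 0 and 0 at 2-fold. TMM factors gave 2 for the combination over 2DG, equal weight per cell 13 for the combination over aPDL1 and 1 marker more per gate 2 for 2DG over ctrl.

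Of 112 recomputed class counts 85 stayed within 1.5 times. Genes higher in C1q-high cells, 9 as reported, were 3 with TMM or median-of-ratios factors, 5 without cycling cells, 16 at the looser fold and 1 at 2-fold. Among all genes the same rule called 1291, and in that order of settings 845, 811, 984, 2035 and 586. Genes higher in monocytes and macrophages than in neutrophils, 9 with the filter, were 24 without it, 4 with the filter in each class alone and 1 with 50 expected UMIs. Among all genes 1817 were called with the filter, and 3744, 984 and 849 in that order. Genes higher in CD8 T cells than in monocytes and macrophages, 2 as reported, were 1 with TMM, median-of-ratios, 50 expected UMIs or 2-fold and 5 without ctrl. Among all genes 1924 were called, and in that order 1307, 1176, 1054, 1159 and 4237. Genes lower in CD8 T cells in that contrast, also 2, were 5 with TMM, median-of-ratios or no filter, 4 at the looser fold and 1 at 2-fold. Among all genes 1418 were called, and in that order 1840, 1986, 2037, 1617 and 1106. Genes lower in B than in CD8 T cells, 1 as reported, were 7 with no filter, 5 without ctrl and 2 with no Scrublet removal or at the looser fold. There were 0 with the filter in each class alone, 50 expected UMIs, 1000 genes per cell, no cycling cells or 2-fold. Among all genes 857 were called, and in that order 1786, 1259, 908, 1048, 434, 353, 815, 793 and 537. Tighter filters test fewer genes, and otherwise the cause was not tested. Depth limits the B cell and neutrophil values most, and leaving out ctrl and filtering in each class alone were chosen after seeing the data.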

Other observations

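Ost4, a small subunit of oligosaccharyltransferase outside the 32 genes and named here after its values were seen, was high in the same 2 libraries in each of 6 classes. In monocytes and macrophages it stood at 91.2 CPM in ctrl, 52.1 in 2DG, 37.4 in aPDL1 and 73.1 in the combination. CD8 T cells gave 53.5, 35.9, 31.4 and 60.0 CPM in that order, CD4 T cells 59.5, 33.7, 29.2 and 60.2, and dendritic cells 86.3, 50.5, 32.3 and 74.1. Neutrophils gave 65.1, 32, 20.4 and 67.3 CPM, and B cells 47.9, 25, 8.19 and 43.9, the latter from 8 to 99 UMIs. In each class ctrl and the combination lay above both libraries with a single treatment. Among the 32 genes, Ostc and Magt1 followed that order in neutrophils, while in CD8 T cells Ostc did not (59.2, 68.6, 69.5 and 80.1 CPM).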
